A study of Sus scrofa with 6 samples.

Results

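The antioxidant enzymes described here are the superoxide dismutases SOD1 and SOD2, catalase (CAT), the glutathione peroxidases GPX1 and GPX4, the peroxiredoxins PRDX1, PRDX2 and PRDX3, thioredoxin (TXN) and thioredoxin reductase 1 (TXNRD1). These 10 genes were looked up by name in the table of normalized transcript abundance, which lists 17678 genes, and 8 of the 10 were found. PRDX1 was not found by name, but the reference table of gene identifiers pairs its symbol with ENSSSCG00000003914, a row without a name, so PRDX1 is given beside the others and is left out of counts over the 8. TXN was found neither by name nor by identifier and was not analysed here.

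Messenger RNA was sequenced from porcine 2-cell embryos at 32 h after parthenogenetic activation, the start of development without sperm. Matured oocytes were injected before activation with a nonspecific negative control siRNA (NC, 3 replicates) or with siRNAs to different sites of SIN3A, the scaffold of a histone deacetylase complex (KD, 3 replicates), and each replicate pooled 20 embryos. Oocytes of both groups came from slaughterhouse ovaries of Landrace, Yorkshire and Duroc crossbred pigs. Both groups shared a maturation medium that contained L-cysteine and melatonin, and an activation step with electric pulses, cycloheximide and cytochalasin B. The embryos carried no paternal genome. As each library was a pool with normalized values, differences between single embryos and in total RNA per embryo could not be seen. The paper describes the 3 replicates as independent. Neither it nor the labels state whether they came from separate collections of ovaries, so the p-values measure only the spread between these libraries.

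Antioxidant enzymes remove the superoxide and hydrogen peroxide that mitochondria and oxidases release. Superoxide dismutases turn superoxide into hydrogen peroxide, SOD1 with copper and zinc in the cytosol and SOD2 with manganese in mitochondria. Catalase, glutathione peroxidases and peroxiredoxins then reduce the peroxide, and thioredoxin and its reductase return oxidised peroxiredoxins to their active form with electrons from NADPH. Before embryonic genome activation, which in the pig comes after the 2-cell stage, the embryo depends on transcripts stored in the oocyte, and embryos cultured in vitro are sensitive to oxidative stress.

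Of the 9 enzymes with values, 3 are selenoproteins in the RefSeq annotation of Sscrofa11.1: GPX1, GPX4 and TXNRD1. In these the active site holds selenocysteine, which is written in the messenger RNA by a TGA triplet that elsewhere ends translation. The coding strand around that triplet is shown to compare the 3 sites, with the selenocysteine triplet in capitals and up to 12 coding bases on each side.
GPX1: gtagcgtcgctcTGAggcacaacggtg
GPX4: gtggcctctcaaTGAggcaagacggag
TXNRD1: caggccggttgcTGAggttaa
In GPX1 the triplet is codon 52 of 207, on the minus strand of chromosome 13 from 31917180 to 31917182. In GPX4 it is codon 73 of 198, on the minus strand of chromosome 2 from 77322633 to 77322635. In TXNRD1 it is codon 498 of 500, on the minus strand of chromosome 5 from 80172266 to 80172268, with 1 codon between it and the stop. The peroxidases thus carry selenocysteine inside the protein and the reductase carries it next to the end. The other enzymes with values have no selenocysteine in this annotation.

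The libraries had an estimated depth of 7800000 to 15800000 reads, read from the spacing of the low values. Only 36.8% to 62.7% of the low values of a library fit that spacing, so the depth is a rough estimate. For the test, 11986 genes whose values averaged 10 or more across the libraries were kept. All 8 enzymes found by name and PRDX1 passed this filter. The targeted gene SIN3A (ENSSSCG00000001880) was at 37361, 33964 and 32404 in NC replicates 1 to 3 and at 3271, 1079 and 4173 in KD replicates 1 to 3, so the labels of all 6 libraries held. Of 12 transcripts fixed as marks of oocytes and early embryos 8 were found, all 8 were tested, none was called, and they summed to between 0.595% and 0.711% of the values of a library. Of 16 marks of cumulus and granulosa cells 14 were found, 9 of these had a mean below 10, and their summed level was 372 to 528 in NC and 376 to 486 in KD libraries, most of it from GREM1. No mark of these cells was at 0 in all 6 libraries. The low marks went both ways: PTGS2 and PTX3 were at 0 in all 3 KD libraries and at most at 3.13 in NC libraries, while CYP19A1 was at 3.26 to 10.7 in KD libraries and at most at 3.55 in NC libraries. The part of such cells in the results below was not tested.

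Transcript abundance of the antioxidant enzymes differed far more between genes than between NC and KD embryos. To compare genes, each value was divided by the length of the longest RefSeq mRNA. On this scale PRDX2, a cytosolic peroxiredoxin, was the most abundant at 2713 ± 228 per kb in NC embryos (SD, n = 3), above 98.9% of the tested genes that had a length. SOD1 followed at 1249 ± 12.5 per kb and PRDX1 at 308 ± 18.2 per kb. GPX4, the peroxidase that reduces lipid hydroperoxides in membranes, was the least abundant at 15.7 ± 7.11 per kb. These levels describe transcripts and not the amount or activity of the proteins.

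The order was steepest at its ends and nearly flat in the middle. Per kb, PRDX2 was above SOD1, SOD1 above PRDX1 and PRDX1 above CAT in each of the 6 libraries. The NC mean of PRDX2 was 2.17 times that of SOD1, and that of SOD1 was 4.05 times that of PRDX1. Below them came CAT at 206 ± 6.60, TXNRD1 at 175 ± 19.9, SOD2 at 166 ± 4.28, GPX1 at 118 ± 9.59 and PRDX3 at 97.6 ± 11.4 per kb in NC embryos. Over the 6 libraries each of these neighbours overlapped with the next, and TXNRD1 and SOD2 overlapped also among the NC libraries. The last step was clear again: PRDX3 was above GPX4 in all 6 libraries, with a ratio of the NC means of 6.20. Without division by length, the NC means were 2596 for PRDX2, 793 for SOD1, 605 for TXNRD1, 485 for CAT and 436 for PRDX1. The place of PRDX1 above CAT and TXNRD1 thus rests on the division. Whether the deposited values scale with mRNA length was not tested.

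**Figure D1:**
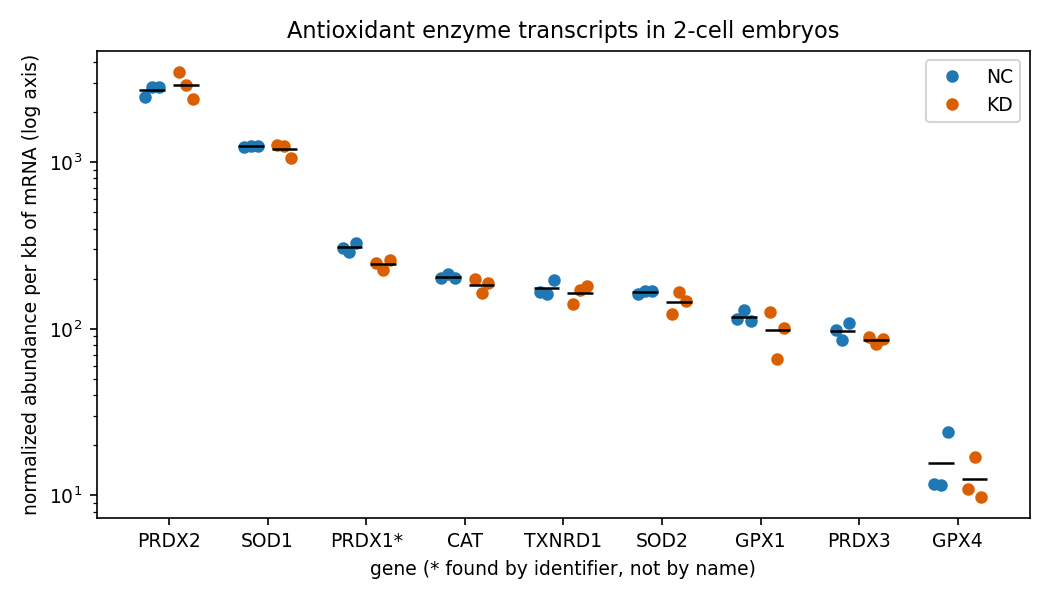
Normalized abundance per kb of the longest mRNA (log axis) for each antioxidant enzyme, ordered by the NC mean. Points are the 3 NC and 3 KD libraries and lines are group means. PRDX2 lies near 2713 and GPX4 near 15.7 in NC, and the groups are apart for PRDX1 and CAT and overlap for the other 7 genes. Over all tested genes, 9.79% had groups without overlap.

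In the pairs SOD1 and SOD2, and PRDX2 and PRDX3, the cytosolic enzyme had the higher transcript level. The level of SOD1 per kb was 7.21 to 10.3 times that of SOD2 across the 6 libraries. The ratio was 7.52 ± 0.134 in NC and 8.35 ± 1.72 in KD embryos (SD, n = 3 each), and KD replicate 1, where SOD2 was lowest, had the highest ratio. PRDX2 was at 25.0 to 39.3 times the level of PRDX3, the mitochondrial peroxiredoxin, with a ratio of 28.1 ± 4.41 in NC and 34.3 ± 5.98 in KD embryos. The groups overlapped in both ratios. Without division by length, the NC means were 793 for SOD1 and 278 for SOD2, and 2596 for PRDX2 and 153 for PRDX3. The cytosolic enzyme was thus higher either way, but the size of both ratios rests in part on the division. In raw terms the 8 enzymes found by name made up 0.0402% to 0.0483% of a library's values, and PRDX2 alone supplied 49.8% to 60.0% of that sum. The sums ranged from 4704 to 5239 in NC and from 4496 to 5556 in KD libraries and overlapped.

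To determine whether SIN3A depletion changed these transcripts, KD was compared with NC by limma on log2(value + 1), with Benjamini-Hochberg adjustment over all genes tested. None of the 8 enzymes found by name passed an adjusted p of 0.05 (limma, adjusted p = 0.997 for each), and 0 of the 8 had an unadjusted p below 0.05. Over all genes tested, 0.159% were called at the adjusted threshold and 4.61% had an unadjusted p below 0.05. At these rates 8 genes without a call do not stand apart from the table. Of the 8, 7 had a log2 fold change below 0 and 1 above, where 49.4% of all genes were below 0. Their median log2 fold change was -0.18, against 0.0026 for all genes tested, and ranged from -0.31 for GPX1 to 0.10 for PRDX2. All of these point estimates lay between the 5th and 95th percentiles of all genes, -0.42 and 0.44. The median absolute log2 fold change was 0.18 for the 8 enzymes and 0.12 for all genes tested. The median of the 8 was -0.082 without NC replicate 3 and -0.12 without KD replicate 2.

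**Figure D2:**
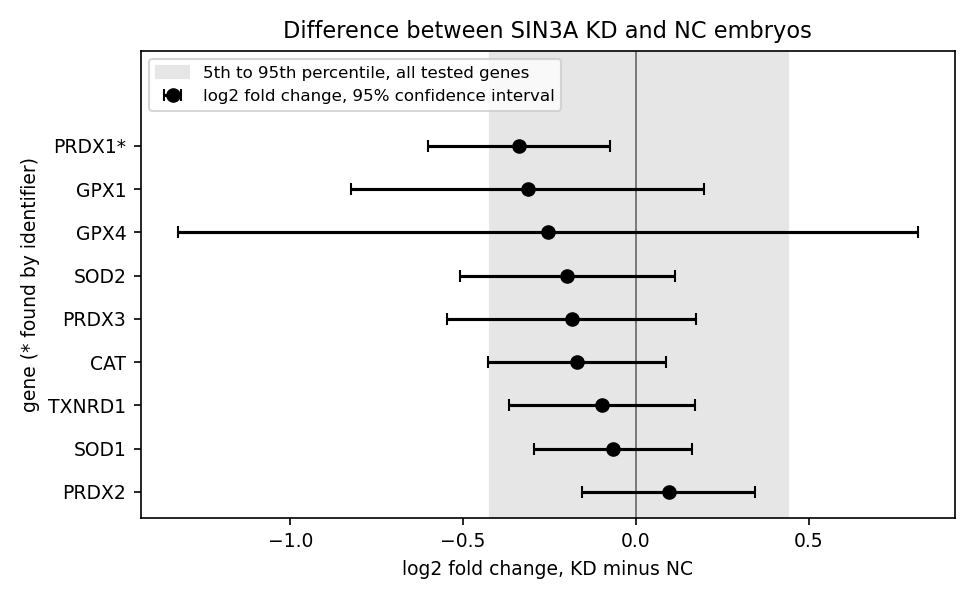
Log2 fold change of each antioxidant enzyme, KD minus NC, on the log2(value + 1) scale, with 95% confidence intervals from limma that are not adjusted for the number of genes. The grey band spans the 5th to 95th percentiles of all tested genes. The intervals of the 8 enzymes found by name include 0, and that of PRDX1 runs from -0.60 to -0.075.

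Among the superoxide dismutases, SOD1 (ENSSSCG00000021355, chromosome 13 from 195326573 to 195335273, plus strand) stood at normalized abundances of 784, 795 and 799.9 in the NC libraries and 808, 798 and 674 in the KD libraries, in the order of their replicate numbers 1 to 3. KD replicates 1 and 2 lay at the NC level and KD replicate 3 lay below it. The log2 fold change was -0.066 (standard error 0.11, 95% confidence interval -0.30 to 0.16), and it was 0.018 without KD replicate 3. SOD1 was among the steadiest of the group, with a coefficient of variation of 0.998% between NC libraries and 9.84% between KD libraries. SOD2 (ENSSSCG00000040317, chromosome 1 from 7679352 to 7689564, plus strand) was at 269.6, 283 and 281 in NC and at 206, 279.7 and 246 in KD replicates 1 to 3. The NC values were close together, and 2 of the 3 KD values lay below all of them. Its log2 fold change was -0.20 (standard error 0.15, 95% confidence interval -0.51 to 0.11). It was -0.30 without KD replicate 2 and -0.082 without KD replicate 1.

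CAT (ENSSSCG00000013302, chromosome 2 from 26493664 to 26533881, minus strand) encodes the peroxisomal enzyme that splits hydrogen peroxide without a cofactor from glutathione or thioredoxin. It was at 476, 503 and 476 in NC replicates 1 to 3 and at 468, 384 and 445 in KD replicates 1 to 3. Every KD value was below every NC value, but the gap between the groups was narrow, from 476 to 468. CAT was the only enzyme of the 8 without overlap between the groups, and 9.79% of all genes tested had groups without overlap, 4.94% with KD lower. The mean was 485 ± 15.5 in NC and 432 ± 43.7 in KD embryos (SD, n = 3 each), and the log2 fold change was -0.17 (standard error 0.12, 95% confidence interval -0.43 to 0.087), or -0.087 without KD replicate 2. The exact two-sided permutation test gave p = 0.1, the smallest that 3 against 3 allows.

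The glutathione peroxidases were the least precisely measured. GPX1 (ENSSSCG00000033727, chromosome 13 from 31916269 to 31917337, minus strand), the main cytosolic glutathione peroxidase, was at 91.3, 103 and 88.9 in NC and at 102, 52.4 and 81.3 in KD replicates 1 to 3. KD replicate 1 lay within the NC range and KD replicate 2 lay far below it. The log2 fold change of -0.31 (standard error 0.24, 95% confidence interval -0.82 to 0.20) became -0.053 without KD replicate 2. GPX4 (ENSSSCG00000024052, chromosome 2 from 77321568 to 77323931, minus strand) was at 10.4, 10.3 and 21.3 in NC and at 9.74, 15.1 and 8.76 in KD replicates 1 to 3. By the spacing of the low values, which 36.8% to 62.7% of them fit, these values stand for about 7.03 to 24.8 reads per library, an estimate and not a count. Its log2 fold change was -0.25 with a 95% confidence interval of -1.33 to 0.82, and it was 0.070 without NC replicate 3, the library with its highest value.

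The peroxiredoxins included the most abundant transcript of the group. PRDX2 (ENSSSCG00000013736, chromosome 2 from 66207829 to 66211474, plus strand) was at 2345, 2727 and 2718 in NC replicates 1 to 3 and at 3336, 2779 and 2284 in KD replicates 1 to 3. The KD libraries held both the highest and the lowest value of PRDX2. It was the only enzyme of the 8 with a log2 fold change above 0, 0.095 (standard error 0.12, 95% confidence interval -0.16 to 0.35), and this was -0.040 without KD replicate 1. PRDX3 (ENSSSCG00000010682, chromosome 14 from 129079050 to 129090790, minus strand) was at 154, 135 and 171 in NC and at 139, 127 and 135 in KD replicates 1 to 3. The KD values lay at the lower end of the NC values and overlapped with them. Its log2 fold change was -0.19 (standard error 0.17, 95% confidence interval -0.55 to 0.17), or -0.10 without NC replicate 3.

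PRDX1 (ENSSSCG00000003914, chromosome 6 from 165847390 to 165859918, plus strand), a cytosolic peroxiredoxin close in sequence to PRDX2, was at 434, 411 and 462 in NC replicates 1 to 3 and at 352, 316 and 365 in KD replicates 1 to 3. All 3 KD values lay below all NC values, with a gap from 411 to 365. Of all genes tested, 9.79% had groups without overlap, 4.94% with KD lower. The mean was 436 ± 25.7 in NC and 344 ± 25.1 in KD embryos (SD, n = 3 each), so that KD embryos held 79.1% of the NC mean. The log2 fold change was -0.34 (standard error 0.12, 95% confidence interval -0.60 to -0.075). PRDX1 did not pass the threshold over all genes (limma, unadjusted p = 0.0148, adjusted p = 0.922), and 189 genes, PRDX1 included, had an unadjusted p at least as low. The exact two-sided permutation test gave p = 0.1, its smallest value. With each library left out in turn the log2 fold change of PRDX1 was between -0.38 and -0.28. PRDX1 was looked up by identifier after its name was found missing.

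TXNRD1 (ENSSSCG00000000843, chromosome 5 from 80170334 to 80213889, minus strand), the cytosolic reductase that recharges thioredoxin, was at 574, 557 and 684 in NC replicates 1 to 3 and at 487, 589 and 622 in KD replicates 1 to 3. The groups overlapped, with the highest value in NC replicate 3 and the lowest in KD replicate 1. The mean was 605 ± 69.0 in NC and 566 ± 70.3 in KD embryos (SD, n = 3 each). The log2 fold change was -0.097 (standard error 0.13, 95% confidence interval -0.37 to 0.17) and turned to 0.0071 without KD replicate 1.

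The 95% confidence intervals from limma, not adjusted for the number of genes, give the range of change of each transcript that this fit allowed. For SOD1 the interval ran from 81.5% to 112% of the NC level on the log2(value + 1) scale, for TXNRD1 from 77.6% to 113% and for CAT from 74.4% to 106%. For PRDX2 it ran from 89.8% to 127%, for PRDX3 from 68.5% to 113% and for SOD2 from 70.3% to 108%. The peroxidases were left wider, with 56.5% to 115% for GPX1 and 39.9% to 176% for GPX4. A halving of the transcript lay outside this limma interval for each enzyme other than GPX4. For GPX1 the margin was small, and its log2 fold change was -0.52 without KD replicate 1. These intervals draw on the variance of all genes tested, and intervals from the spread of each gene alone were not computed.

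The enzymes did not move together across the KD libraries. Relative to the NC mean of each gene on the log2(value + 1) scale, 7 of the 8 enzymes were below 0 in KD replicate 3, 5 in KD replicate 1 and 4 in KD replicate 2. The largest deviations fell on different genes: GPX1 at -0.84 in KD replicate 2, SOD2 at -0.43 in KD replicate 1 and GPX4 at -0.54 in KD replicate 3. NC libraries also differed, as 7 of the 8 were below the NC mean in NC replicate 1 and 2 of the 8 in NC replicate 3. The largest deviation upward in any library, 0.65, was that of GPX4 in NC replicate 3.

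**Figure D3:**
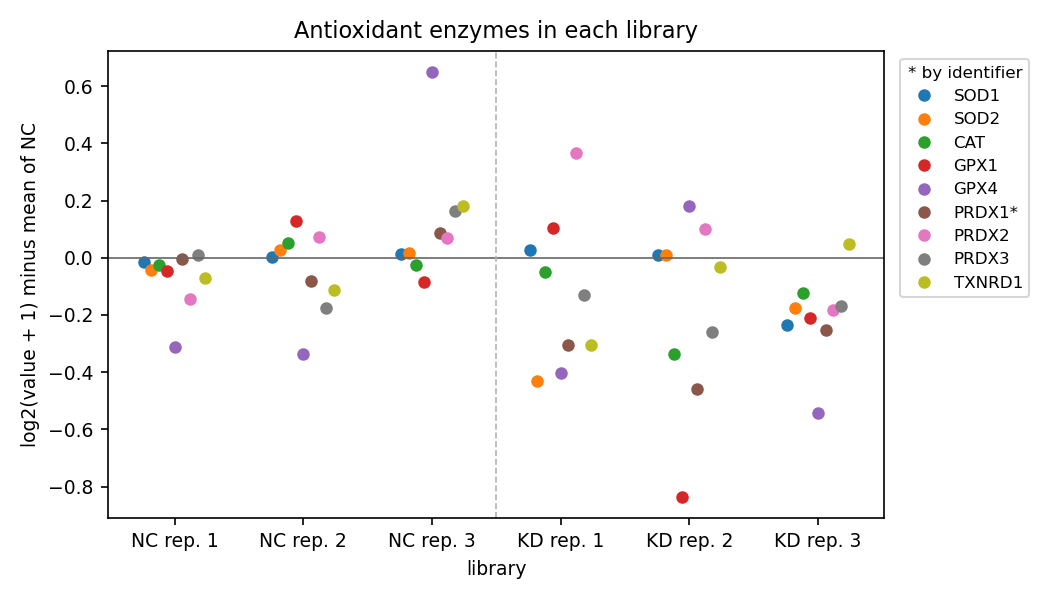
Difference of log2(value + 1) from the NC mean of the same gene for each antioxidant enzyme in each of the 6 libraries. The dashed line parts NC from KD libraries. GPX1 in KD replicate 2 (-0.84) and GPX4 in NC replicate 3 (0.65) lie farthest from 0, and PRDX1 lies below 0 in all 3 KD libraries.

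GPX1 had the largest absolute log2 fold change of the 8. Over the 6 libraries the tested genes whose log2(value + 1) profile was most like that of GPX1 were TRIM46 (Pearson r = 0.985), ZCCHC8 (r = 0.982) and DNAH5 (r = 0.981). All 3 shared its low value in KD replicate 2. TRIM46 was at 36.2, 36.2 and 35.3 in NC and at 38.1, 23.8 and 32.3 in KD replicates 1 to 3. ZCCHC8, at 519.9 in KD replicate 2 and between 626 and 758 in the other libraries, was also among the 3 genes most like CAT (r = 0.983). These are descriptions over 6 libraries chosen from 11986 genes, and for each of the 9 enzymes the most similar gene reached an r of at least 0.977.

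The wider antioxidant system was compared through 71 further genes in 11 lists, of which 65 were found, 4 of them by identifier, and 54 were tested. None of the 54 passed an adjusted p of 0.05 (limma, lowest adjusted p = 0.997), and 1 had an unadjusted p below 0.05. Log2 fold changes were above 0 for 27 genes and below 0 for 27, with a median of -0.0015. In 5 of the 54 genes, TXN2, TXNIP, TXNL1, GSTZ1 and IDH2, every KD value was below every NC value, and in 0 every KD value was above. Over all genes 9.79% had no overlap between the groups, 4.94% with KD lower. Apart from TXNIP these 5 are named after their values were seen.

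The 5 most abundant genes of these lists per kb in NC embryos were FTL, GSR, GCLC, SECISBP2 and CHAC1. FTL, the light chain of the iron store ferritin, was at 12735 per kb in NC embryos and 12342 per kb in KD embryos. GSR, glutathione reductase, was at 1706 per kb in NC and 1776 in KD, and GCLC, the catalytic subunit of the enzyme that limits glutathione synthesis, was at 1562 per kb in NC and 1580 in KD. GSR thus stood above SOD1 and below PRDX2 on the same scale in the NC means. Without division by length the NC mean was 4808 for GSR and 2596 for PRDX2, so the place of GSR below PRDX2 rests on the division. SECISBP2, which lets ribosomes read the TGA triplets shown above as selenocysteine, was at 748 per kb in NC and 758 in KD, and CHAC1, which breaks down glutathione, at 740 per kb in NC and 785 in KD. The log2 fold changes of these 5 genes were between -0.052 and 0.094.

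The largest differences fell on genes with low values. TXNIP, an inhibitor of thioredoxin, was at 75.0, 70.1 and 54.0 in NC and at 51.5, 28.7 and 46.2 in KD replicates 1 to 3, a log2 fold change of -0.67 (standard error 0.28, limma, unadjusted p = 0.029, adjusted p = 0.997). It was the gene of the 54 with an unadjusted p below 0.05. PRDX4, the peroxiredoxin of the endoplasmic reticulum, differed by 0.73 on the log2 scale (standard error 0.47) at means of 14.8 in NC and 23.5 in KD, with overlapping groups. GSTO1 had -0.64, MSRB1 0.62 and KEAP1, the sensor that holds the transcription factor NRF2 in check, 0.55, each with overlapping groups. NRF2 itself, encoded by NFE2L2 and named here after its values were seen, was at 569 ± 60.1 in NC and 557 ± 46.6 in KD embryos (SD, n = 3 each).

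By list, the medians of the log2 fold change lay on both sides of 0. The thioredoxin system had -0.17 over 5 genes tested, and the glutaredoxins had -0.19 over 3 genes. Glutathione transferases had -0.19 over 7 genes and glutathione peroxidases beyond GPX1 and GPX4 had -0.19 over 2. Peroxiredoxins and their partners beyond the members had 0.084 over 6 genes, methionine sulfoxide reductases 0.19 over 3 and the NRF2 pathway 0.043 over 8. Glutathione synthesis and recycling had 0.025 over 7 genes, NADPH supply -0.0059 over 7 and selenoprotein synthesis -0.018 over 6. SOD3 and CCS, the further superoxide dismutase and the copper chaperone of SOD1, had means below 10 and were not tested.

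**Figure D4:**
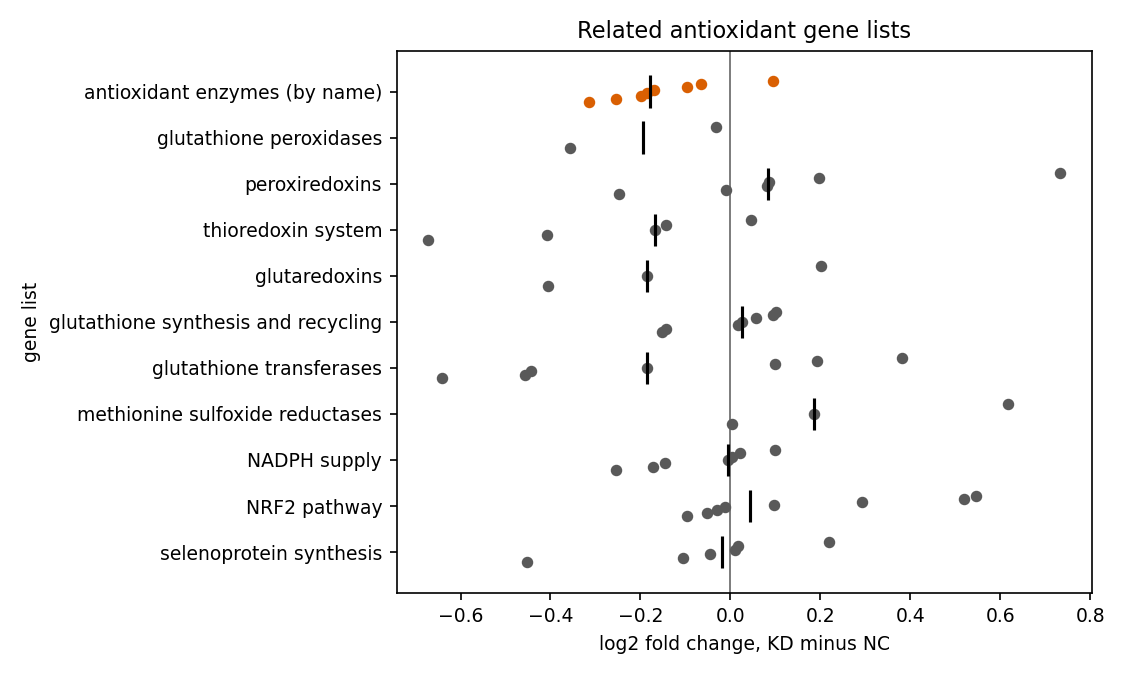
Log2 fold change (KD minus NC) of each tested gene in the 8 antioxidant enzymes found by name and in 10 related gene lists. Each point is a gene and each vertical line is the median of its list. The medians run from -0.19 to 0.19, and no gene passed the adjusted threshold.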

How the data were processed

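Per the submitters' processing notes, the authors used Salmon 0.14.1 and DESeq2 with the build Sscrofa11.1. They deposited a table of normalized signal per gene, neither counts nor scaled to a fixed sum. How transcripts were summed to genes is not given in the sources used here. Low values lay only partly on a spacing per library (36.8% to 62.7% within 0.05 of a whole multiple), so the values could not be turned back into read counts, and tests made for counts were not applied.

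Genes averaging 10 or more were compared by limma 3.58.1 under R 4.3.3 (lmFit, eBayes with a variance trend) on log2(value + 1), which understates changes of low genes, with Benjamini-Hochberg adjustment. Single genes were compared by exact two-sided permutation tests (scipy 1.17.1). The fit was tested on simulated data whose planted changes were larger than the differences estimated for the enzymes. That test does not show whether differences of their size would be called. Groups came from the sample titles. Lengths, positions and sequences came from the RefSeq annotation of Sscrofa11.1, and 86.2% of tested genes had a length. Of 3575 genes without a name, 837 were paired with a symbol by identifier.

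Members and lists were chosen with earlier results of these data known. Named genes were the listed enzymes, SIN3A, called genes of the related lists, and their 5 most abundant per kb and 5 largest differences. Also named were the 3 genes most like GPX1, which differed most among the 8 enzymes found by name. PRDX1, found by identifier, differed more and was left out of this choice. The pseudocount (0.1, 10), the filter (none, 100), the scaling (TMM-like, quantile), the variance model (no trend, robust empirical Bayes) and the replicate block were varied in turn, and each library was left out once. Protein sequences and added spike-in RNA were not used here.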

Additional observations from a re-analysis of the deposited data

How the results depend on the processing

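In 15 alternative settings none of the 8 antioxidant enzymes found by name, nor PRDX1, passed an adjusted p of 0.05, and none of the related antioxidant genes did. Of 133 comparisons of a single enzyme with an alternative, 129 kept the direction and 4 reversed, all when a library was left out. In those fits SOD1 lay between log2 fold changes of -0.11 and 0.018, with a range from -0.47 to 0.070 for GPX4, from -0.040 to 0.23 for PRDX2 and from -0.17 to 0.0071 for TXNRD1. The median over the 8 enzymes was between -0.18 and -0.082 there, -0.17 under both other scalings (TMM-like and quantile), and -0.13 at a mean of at least 100, where 6 of the 8 were tested. The number of genes called over the whole table was 19. It was 0 without the variance trend, with 622 genes at an unadjusted p below 0.05, and ranged from 11 to 19 when a library was left out (12 without NC replicate 2, 12 without NC replicate 3, 11 without KD replicate 1 and 11 without KD replicate 2). SIN3A, at a log2 fold change of -3.81, lost its call without the variance trend (limma, adjusted p = 0.423) and with the robust step (adjusted p = 0.469). The cause was not tested. Leaving out a library gave SIN3A values from -4.20 to -3.22. Blocking on the replicate number, 26 genes were called, none of them an antioxidant enzyme, and the lowest adjusted p of the 8 was 0.952 (limma). Deviations of same-numbered libraries from their group means had correlations of 0.109, 0.111 and 0.0872, and every library correlated best with its own number. The correlations of differently numbered libraries were below 0. Deviations from a group mean sum to 0 within the group, so the values below 0 partly follow from the positive ones and add no separate evidence. The labels do not say that a number marks a shared batch. Values as low as those of GPX4 rest on few estimated reads; the part of depth in their spread was not tested.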
